A study of Mus musculus with 24 samples.

Results

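The regions described here are 1184 windows of 100 kb on the mouse autosomes in which the phosphorylated histone gH2AX was low relative to H2AX, the histone it is made from. The labels do not say whether the H2AX antibody also binds the phosphorylated form, so H2AX is read here as the signal of that antibody. They were chosen from 23679 eligible windows among the 24639 autosomal windows (bins) and the 27268 bins of the whole count table. A bin was eligible when its mean input read density lay between 0.5 and 1.5 of the median of its chromosome. For each eligible bin the reads of the 4 wild-type (WT) gH2AX libraries were summed, the reads of the 4 WT H2AX libraries were summed, both sums were scaled to autosomal reads, and the bins in the lowest 5% of log2(gH2AX/H2AX) were kept.

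The study profiled both histone forms and input DNA by chromatin immunoprecipitation sequencing (ChIP-seq) in primary mouse embryonic fibroblasts (MEFs) of strain C57BL6. The cells were WT or SIRT7-KO, female or male, and all of them had been given 5 Gy of X-rays and left for 30 min before fixation, so no labelled group was unirradiated. Each of the 12 groups (gH2AX, H2AX or input in female WT, female KO, male WT and male KO) held 2 libraries. The labels do not say how the KO allele was made, how old the embryos were or whether both libraries of a group are of different cultures, so the p-values below measure only the spread between these libraries, which may be technical. ChIP-seq of a histone does not measure transcripts, so the fibroblast identity of the cells could not be checked against its markers.

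H2AX is a variant of the core histone H2A that is built into a share of nucleosomes throughout the genome. Around a DNA double-strand break the kinases ATM, ATR and DNA-PK phosphorylate the tail of H2AX, and the resulting gH2AX spreads over large chromatin domains and recruits repair factors. SIRT7 is an NAD-dependent deacetylase of the nucleus that has been linked to the repair of such breaks. The ratio of gH2AX to H2AX therefore asks how much of the phosphorylated form a region carries for the amount of substrate histone it holds.

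Promoter sequences of 4 genes in these bins are shown as examples of promoters with many and with few CpG dinucleotides. Ajap1 (an adherens junction protein) lies in the bin of lowest WT ratio, Grik3 (a kainate-type glutamate receptor subunit) had all 4 of its bins among the 1184, and Krt5 and Krt14 (the keratin pair of basal epidermal cells) belong to the gene family with the largest share of its bins chosen among the 19 lists examined. Each is the stretch of 250 bases before a start in the promoter annotation, printed 5′ to 3′ on the strand of the gene, from RefSeq with build GRCm38.p6. The annotated Grik3 gene begins at chr4:125490259, so its printed stretch lies inside the gene. Capitals mark CG dinucleotides.
Ajap1 (chr4:153482831-153483080, minus strand): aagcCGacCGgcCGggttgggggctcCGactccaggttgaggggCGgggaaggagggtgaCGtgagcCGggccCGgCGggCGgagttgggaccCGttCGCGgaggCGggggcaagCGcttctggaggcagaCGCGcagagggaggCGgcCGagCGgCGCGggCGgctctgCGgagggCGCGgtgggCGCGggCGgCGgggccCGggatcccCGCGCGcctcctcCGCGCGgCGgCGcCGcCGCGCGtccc
Grik3 (chr4:125490446-125490695, plus strand): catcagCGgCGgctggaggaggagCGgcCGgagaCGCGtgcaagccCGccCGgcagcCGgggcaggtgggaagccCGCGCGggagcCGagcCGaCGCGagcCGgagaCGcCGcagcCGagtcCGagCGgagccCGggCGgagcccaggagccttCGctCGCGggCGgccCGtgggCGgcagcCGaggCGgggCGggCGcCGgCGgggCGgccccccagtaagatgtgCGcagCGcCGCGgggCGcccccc
Krt5 (chr15:101712906-101713155, minus strand): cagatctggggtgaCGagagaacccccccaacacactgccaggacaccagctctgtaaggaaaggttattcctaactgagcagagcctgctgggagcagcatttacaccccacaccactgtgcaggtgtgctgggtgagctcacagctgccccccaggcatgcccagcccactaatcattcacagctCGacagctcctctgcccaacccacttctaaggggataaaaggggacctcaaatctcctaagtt
Krt14 (chr11:100206031-100206280, minus strand): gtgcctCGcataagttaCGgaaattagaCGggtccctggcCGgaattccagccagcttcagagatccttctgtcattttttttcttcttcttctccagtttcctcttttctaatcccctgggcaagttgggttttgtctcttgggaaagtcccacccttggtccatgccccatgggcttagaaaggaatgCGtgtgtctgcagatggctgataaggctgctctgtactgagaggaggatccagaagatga
The Ajap1 and Grik3 stretches held 43 and 42 CG dinucleotides at 81.2% and 82% G+C. Those of Krt5 and Krt14 held 2 and 5 at 56% and 49.6% G+C. Over windows of 300 bases (250 before and 50 after the start, 1 promoter a gene), the 663 promoters found in 388 of the chosen bins had a median of 5 CG dinucleotides (range 0 to 56), against 14 for the 16087 promoters of all eligible bins. Windows with 15 or more made up 27.1% of the former and 48.8% of the latter, and windows with 5 or fewer made up 54.0% and 31.4%. The 318 promoters in the 5% of eligible bins with the highest WT ratio had a median of 10. Of these, 35.8% had 15 or more and 32.7% had 5 or fewer. A smaller share with 15 or more was thus found at both ends of the ratio. The bounds of 15 and 5 were chosen after the values were seen, and promoters in neighbouring bins are not independent.

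Libraries held 84.5 to 212 M reads for gH2AX, 66.9 to 250 M for H2AX and 92.4 to 269 M for input (M, 1e6). The median of the 1184 bins was 3027 to 7532.5 reads in the gH2AX libraries, 2971 to 11224.5 in the H2AX libraries and 3007.5 to 8570 in the input libraries. The bin that holds Sirt7 (chr11:120600001-120700000, not among the 1184) had input values of 35.0 and 34.6 counts per 1e6 autosomal reads (CPM) in female KO, 34.4 and 34.9 in female WT, 37.8 and 34.9 in male KO and 36.6 and 35.6 in male WT. A bin of 100 kb cannot show the loss of an exon. The adjacent bin (chr11:120500001-120600000, also not among the 1184) was higher in input of KO in both sexes, by 0.79 and 0.86 on the log2 scale in females and males (edgeR quasi-likelihood test, Benjamini-Hochberg adjusted p = 1.57e-57 and 1.34e-60), which separated the libraries labelled KO from those labelled WT.

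In the WT libraries that chose the bins, the ratio is a description and was not tested. Its median over the 1184 bins was -0.28 on the log2 scale, or 0.822 of the ratio of autosomal reads, and it ranged from -0.60 to the threshold of -0.23. The median of all eligible bins was 0.00, and that of the highest 5% by the same ratio, used below as the opposite end, was 0.24. The 3 bins just inside the threshold held Rptor (chr11:119600001-119700000), Cacna1e (chr1:154800001-154900000) and Gm4120 (chr12:24300001-24400000). The 3 just outside were chr8:19400001-19500000 (Defb7, Defb8), chr1:154900001-155000000 (no protein-coding gene) and chr5:66400001-66500000 (Apbb2). All 6 were at -0.23, so the edge of the set is not a break in the data. Input density was slightly low at the chosen bins, with a median of 0.936 of the chromosome median against 1.00 for eligible bins and 1.04 for the highest 5%, and its part in the ratio was not tested.

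Whether the same bins carried little gH2AX for their H2AX in cells that the choice had not used was asked in the 8 KO ChIP libraries. They did with the sexes averaged, and in most bins within each sex. With the sexes averaged, all 1184 bins were lower for gH2AX than for H2AX in KO at an adjusted p under 0.05, where 31.9% of all 25703 bins tested on chromosomes 1 to 19 and X were called lower and 33.6% higher (edgeR quasi-likelihood test, two-sided). The median log2 ratio was -0.29, with a range from -0.58 to -0.07, against 0.00 for eligible bins and 0.24 for the highest 5% in WT. In 1168 of the 1184 bins every one of the 4 KO gH2AX libraries lay below every one of the 4 KO H2AX libraries, a separation found in 23.9% of all bins tested.

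Within each sex of KO the result was similar. In KO females 1182 bins were called lower (27.4% of all bins tested), with a median of -0.31. In KO males 1159 were called lower (27.4%), with a median of -0.27, and the other 25 bins were not called. The ratio of KO males was below 0 in 1182 of the 1184 bins and in 11896 of the 23679 eligible bins. Ranked by the KO ratio alone, 896 of the 1184 bins (75.7%) were again in the lowest 5%, and 965 (81.5%) lay below the WT threshold. Across the 23679 eligible bins Pearson's r between the WT ratio and the KO ratio was 0.92. Adjacent bins are not independent and the 2 ratios share the antibodies, the mappability and the base composition of each bin, so r is given as a description.

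**Figure D1:**
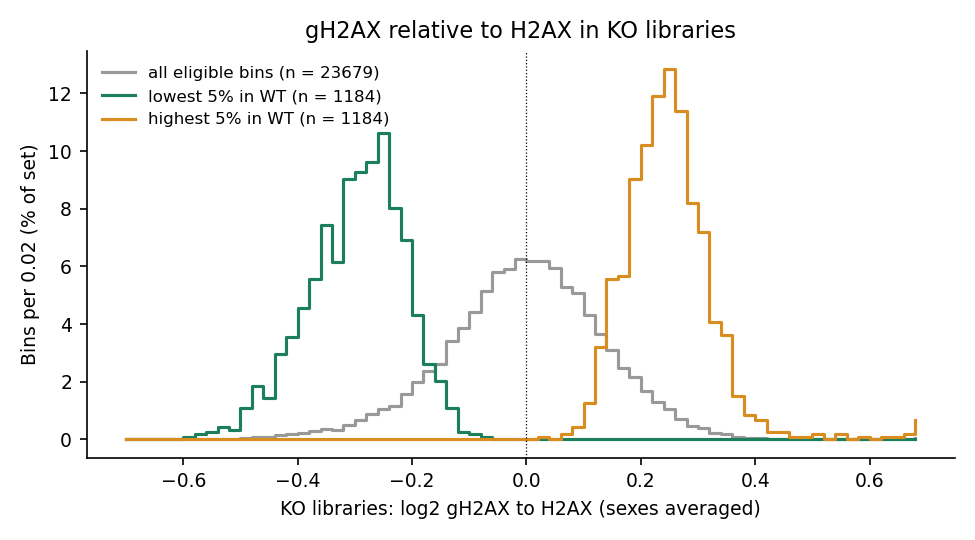
Distribution of the log2 ratio of gH2AX to H2AX in KO libraries (x axis, sexes averaged) as the percent of bins per step of 0.02 (y axis), for all eligible bins (grey), the 1184 bins of lowest WT ratio (green) and the 1184 of highest WT ratio (orange); the outermost steps also hold the values beyond them. The green curve has its median at -0.29 and lies below 0 throughout, and the grey curve is centred on 0.00.

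The side-by-side medians of the 4 sex and genotype groups were -0.31 in female WT, -0.32 in female KO, -0.28 in male WT and -0.27 in male KO. No difference between KO and WT was tested at these bins, because WT values chose them.

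The low ratio went with a high level of H2AX more than with a low level of gH2AX. In KO, H2AX was higher than input in 1183 of the 1184 bins (42.1% of all bins tested) and lower in none (41.8%), with a median log2 ratio to input of 0.43 against 0.01 for eligible bins. gH2AX was itself higher than input in 781 bins (39.2%) and lower in 111 (42.5%), with a median of 0.12 against -0.01. All 4 KO H2AX libraries lay above all 4 KO input libraries in 1178 bins (37.2% of bins tested), and all 4 gH2AX libraries lay above input in 658 (31.8%). At the highest 5% of the WT ratio the order was turned round: the KO medians over input were -0.35 for H2AX and -0.12 for gH2AX.

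**Figure D2:**
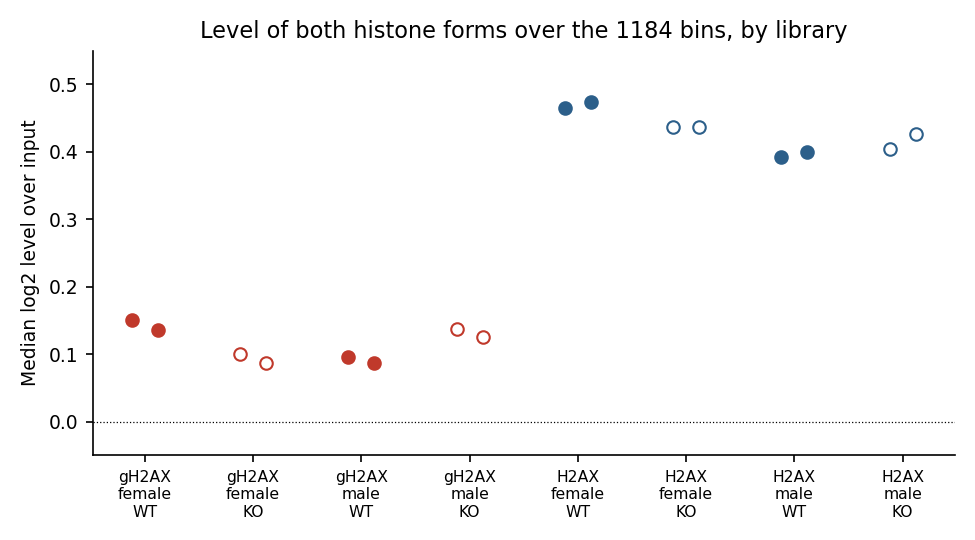
Median log2 level over input (y axis, over the 1184 bins) of each ChIP library, as 1 point, relative to the input of its own sex and genotype, for gH2AX (red) and H2AX (blue) in WT (filled) and KO (open). The 8 gH2AX points lie between 0.09 and 0.15 and the 8 H2AX points between 0.39 and 0.47, with no overlap.

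Per library, the median level over input of the 1184 bins was 0.15 and 0.14 for gH2AX in female WT, 0.10 and 0.09 in female KO, 0.10 and 0.09 in male WT and 0.14 and 0.13 in male KO. For H2AX it was 0.47 and 0.47 in female WT, 0.44 and 0.44 in female KO, 0.39 and 0.40 in male WT and 0.40 and 0.43 in male KO. The 1184 bins took 4.47% to 4.60% of autosomal reads in the gH2AX libraries, 5.47% to 5.66% in the H2AX libraries and 4.03% to 4.16% in input.

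Ranking all eligible bins by KO H2AX over input shows how closely the set followed that form. The highest decile held 710 of the 1184 bins, 30.0% of its 2368 bins, and the ninth decile held 316. The lowest 4 deciles held none. Within the highest decile, all bins together had a median of 0.49 for H2AX and 0.39 for gH2AX over input, while the 710 bins of low WT ratio had 0.52 and 0.21. Less gH2AX at a like H2AX level is what the choice by WT ratio selects for, and the medians of the decile include the 710 bins. The contrast is therefore a description and no separate result. By KO gH2AX over input the set was spread wider, with 160 bins in the highest decile and 127 in the fifth. These deciles were drawn up after the values were seen.

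The 111 bins below input for gH2AX formed the other end of the set. Their median was -0.09 for gH2AX and 0.19 for H2AX over input, against 0.20 and 0.50 in the 781 bins above input, while the KO ratio was alike at -0.30 and -0.28. The lowest 10 by gH2AX over input included 2 bins of the beta protocadherin cluster on chromosome 18 (-0.19 and -0.18), which codes for neuronal adhesion proteins in tandem. They also included chr12:87600001-87700000 (-0.18, Oog1, an oocyte gene of a multicopy family) and chr5:94100001-94200000 (-0.19, Pramel38, of the Prame-like family). The lowest of all was chr6:59800001-59900000 at -0.24, with no protein-coding gene. It was the bin in which H2AX was not above input (-0.05).

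The bins were unevenly spread over chromosomes. Chromosomes 4, 5, 7 and 12 held 518 of the 1184 (43.8%) and 23.0% of eligible bins. Chromosome 5 had 154 (10.5% of its eligible bins), chromosome 12 had 113 (9.85%), chromosome 7 had 131 (9.65%) and chromosome 4 had 120 (8.09%). Chromosome 3 had 16 (1.02%), chromosome 10 had 19 (of 1268) and chromosome 1 had 36 (1.89%). The rule gives 5% over all eligible bins. Chromosome 4 held many bins of both ends, with 6.67% of its eligible bins in the highest 5%, while chromosomes 7, 9 and 11 held few of that end (2.72%, 1.82% and 1.35%).

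**Figure D3:**
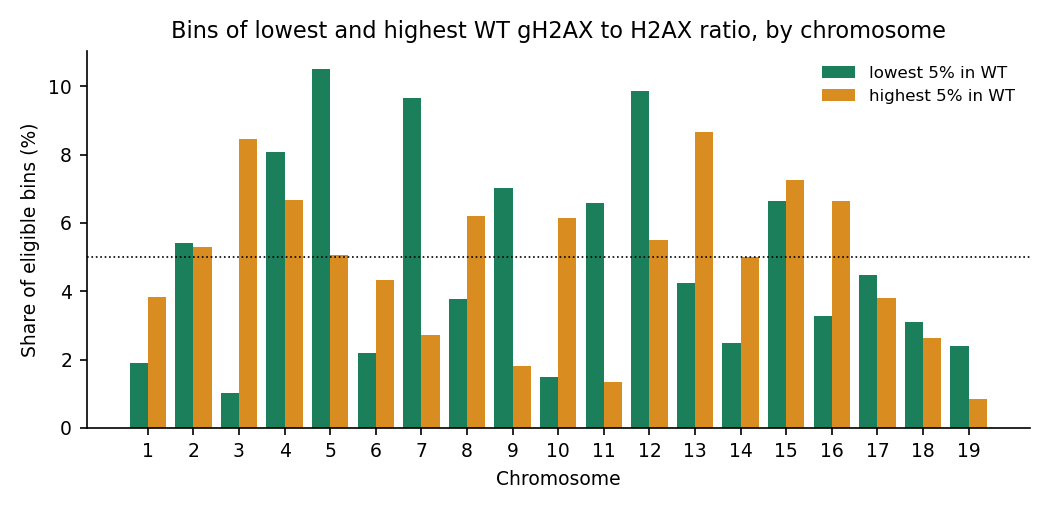
Share of the eligible bins of each autosome (x axis) that fell in the lowest 5% (green) or the highest 5% (orange) of the WT ratio, in percent (y axis); the dotted line marks the 5% of the rule. Chromosome 5 has the tallest green bar at 10.5% and chromosome 3 the shortest at 1.02%.

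Pooled over the autosomes the set leaned towards the distal end, the telomere opposite the centromere in the acrocentric mouse chromosomes. Single chromosomes were not examined for this lean, and on chromosome 12 46 of the 113 bins lay at chr12:18000001-24500000. The last 10 Mb held 251 of the 1184 bins, 13.5% of the 1853 eligible bins there, against 1.40% for the highest 5%. The first 10 Mb held 23, or 1.82% of 1265. Of the 1184 bins, 72.1% lay beyond the midpoint of their chromosome, where 51.4% of eligible bins lie. The KO libraries showed the same slope over all bins, with a median ratio of -0.06 in eligible bins of the last 10 Mb and 0.00 in those of the first 10 Mb.

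Neighbouring bins tended to belong together. The 1184 bins formed 573 runs of adjacent bins, 334 of them of a single bin and 48 of 5 or more, and 850 bins (71.8%) touched another. Such clustering was also seen at the opposite end, where 60.0% of the highest 5% touched another bin of that end. Bins in runs of 5 or more (350) had a median KO ratio of -0.36, those in runs of 2 to 4 (500) had -0.29 and single bins (334) had -0.24. Of the bins in the long runs 44.3% held no protein-coding gene, against 17.4% of the single bins.

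The KO ratio rose steeply at the first bins outside the set and more slowly beyond. In the 1001 eligible bins next to the set the median was -0.12, and 716 (71.5%) were called lower in KO with edgeR. At 0.2 Mb the median was -0.05, at 0.3 Mb it was -0.04 and beyond 5 Mb it was 0.04. The share called lower was 47.8% at 0.2 Mb and 45.2% at 0.3 Mb, still above the 32.4% of eligible bins, and 17.7% beyond 5 Mb. H2AX over input had a median of 0.43 inside, 0.26 at 0.1 Mb, 0.23 at 0.2 Mb and -0.14 beyond 5 Mb. gH2AX over input went the other way over the first step, from 0.12 inside to 0.16 at 0.1 Mb and 0.19 at 0.2 Mb, before it reached -0.11 beyond 5 Mb. By medians the set thus lay in broad neighbourhoods high in both forms, with a local peak of H2AX and a small dip of gH2AX. Bins next to the set are those that the rule left out for a WT ratio above the threshold. A step at the edge, with more H2AX and less gH2AX inside, is what that choice selects for. The step is therefore a description and no separate result. The quartiles of gH2AX overlapped, at 0.02 to 0.24 inside and 0.01 to 0.32 at 0.1 Mb. Those of H2AX were 0.32 to 0.55 and 0.17 to 0.39. The calls showed no such dip. gH2AX was called higher than input in 66.0% of the set and 67.0% of the eligible bins next to it, and lower in 9.4% and 14.4%.

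**Figure D4:**
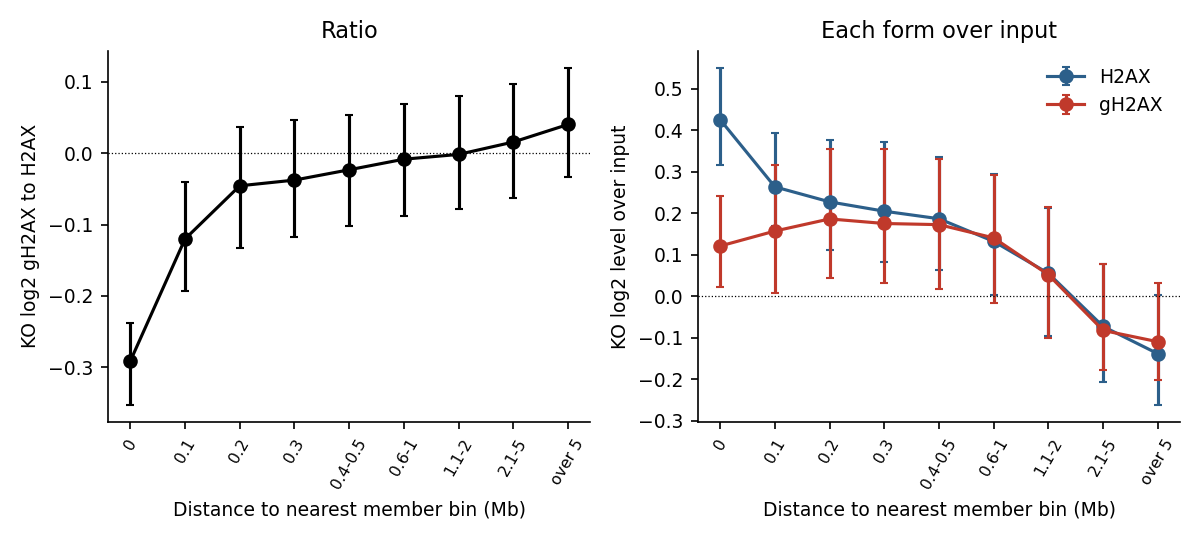
Median (points) and middle 50% of bins (bars) of the KO log2 ratio of gH2AX to H2AX (left) and of each form over input (right) against the distance in Mb to the nearest of the 1184 bins (x axis, 0 for the bins themselves). The ratio climbs from -0.29 to -0.12 at the first bin outside, and H2AX falls from 0.43 to 0.26 there while gH2AX moves from 0.12 to 0.16.

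The longest run covered 23 bins of distal chromosome 4 (chr4:152500001-154800000), with Prdm16 (a zinc finger regulator of brown fat and haematopoietic stem cells), Ajap1 and Megf6. Its mean KO ratio was -0.39, all 23 bins were called lower in KO, and the 5 bins on either side averaged -0.02. H2AX over input averaged 0.67 in the run and gH2AX 0.29. H2AX stayed between 0.53 and 0.85 in every bin of it. gH2AX dropped from 0.63 in the bin before the run to 0.52 and 0.25 in its first 2 bins. It lay between 0.09 and 0.31 over the 13 bins that follow the first. In the remaining bins of the run it was higher, at 0.28 to 0.54. The first 2 bins beyond the run were at 0.46 and 0.54.

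**Figure D5:**
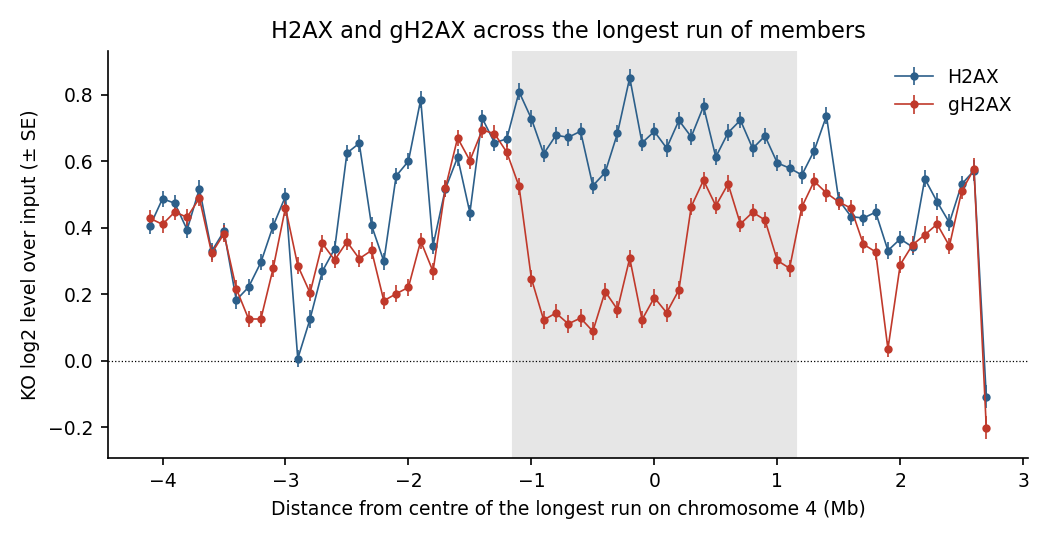
KO log2 level over input (y axis, fitted value with its SE as bars) of H2AX (blue) and gH2AX (red) per bin against the distance in Mb from the centre of the 23-bin run on chromosome 4 (x axis), with the run shaded. H2AX keeps between 0.53 and 0.85 inside the shaded run, while gH2AX is at 0.31 or less over its first 1.4 Mb apart from the outermost bin. Over the rest of the run gH2AX is at 0.28 to 0.54.

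The next 7 runs had mean KO ratios between -0.35 and -0.41. chr5:127400001-129000000 held 16 bins over Tmem132d and Tmem132c (membrane proteins of neural tissue) and Rimbp2 (a presynaptic scaffold), with a mean of -0.37. chr2:178500001-179800000 held 13 bins beside and over Cdh4 (R-cadherin), with a mean of -0.40. chr15:86300001-87600000 held 13 bins with Tbc1d22a and Tafa5 (-0.37), and a run of 10 bins at chr15:87700001-88700000 lay just beyond it (-0.41). chr4:127400001-128600000 held 12 bins with Csmd2, a large transmembrane protein of the brain (-0.37). chr7:137900001-138800000 held 9 bins with Tcerg1l, a paralogue of a transcription elongation regulator (-0.35).

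The last of the 8 runs, chr12:18600001-19600000 (10 bins, mean -0.41), is part of a stretch whose genes mostly carry provisional names. In chr12:18000001-24500000, bounds chosen after the values were seen, 46 of 53 eligible bins belonged to the set. Of the 26 that hold a protein-coding gene, 25 hold one with a provisional Gm or LOC name. Whether these genes are copies of each other was not examined. Reads of near-identical copies, if there are any, may have been placed in any of them, so the location of these 46 values is uncertain. The flanks of the 8 runs (up to 5 bins on either side) differed. They averaged -0.02 at the 23-bin run and 0.03 at the Csmd2 run, but -0.24 at the Tmem132d run, -0.18 at the Cdh4 run, -0.18 at each of the 2 runs on chromosome 15, -0.14 at Tcerg1l and -0.35 at the chromosome 12 run. Flank bins were any eligible bins, including bins of the set in other runs. Most of these runs thus lay in wider stretches of low ratio. On chromosomes 12 and 15 these stretches were in part made of other bins of the set.

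The bin with the lowest WT ratio (-0.60) was chr4:153300001-153400000, in Ajap1. In KO it had 34.0 and 34.3 CPM of gH2AX in females and 35.1 and 34.8 in males. H2AX was 52.8 and 50.0 CPM in KO females and 47.5 and 50.1 in KO males. Input was 32.0 and 31.7 CPM in KO females and 29.4 and 31.5 in KO males. gH2AX thus lay just above input in all 4 libraries and H2AX above both, without overlap. The KO log2 ratio was -0.53 ± 0.03 (SE, n = 2 libraries per antibody and sex; edgeR adjusted p = 2.57e-43), with -0.58 in females and -0.48 in males. In WT, gH2AX was 35.0 and 33.5 CPM in females and 33.4 and 34.0 in males, and H2AX was 49.6 and 53.2 in females and 50.5 and 51.6 in males.

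The adjacent Ajap1 bin, chr4:153400001-153500000, holds the CpG-dense promoter printed above. Its gH2AX was 38.0 and 38.4 CPM in KO females and 34.2 and 35.8 in KO males. H2AX was 55.5 and 56.4 CPM in KO females and 50.2 and 52.7 in KO males, again above every gH2AX library. The KO ratio was -0.54 ± 0.02 (SE; edgeR adjusted p = 8.77e-46). Further bins of the same run, chr4:152800001-152900000 and chr4:152900001-153000000, held no protein-coding gene and had KO ratios of -0.53 and -0.56.

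Igsf21, a synaptic immunoglobulin superfamily protein, gave a second locus on chromosome 4. At chr4:140200001-140300000 gH2AX was 37.8 and 36.5 CPM in KO females and 38.2 and 37.0 in KO males. H2AX was 55.4 and 55.9 CPM in KO females and 51.4 and 57.3 in KO males. The groups did not overlap, and the KO ratio was -0.55 ± 0.03 (SE; edgeR adjusted p = 2.89e-45). The bin after it, chr4:140300001-140400000, was at -0.53.

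Rbfox3 codes for NeuN, a splicing factor that marks mature neurons. At chr11:118600001-118700000, inside Rbfox3, gH2AX was 37.6 and 38.4 CPM in KO females and 38.3 and 38.2 in KO males. H2AX was 56.9 and 57.0 CPM in KO females and 52.8 and 52.4 in KO males. The libraries of a sex lay within 1 CPM of each other and far from those of the other antibody, with a KO ratio of -0.52 ± 0.02 (SE; edgeR adjusted p = 4.15e-44). Of the 6 bins that Rbfox3 spans, 5 belonged to the set.

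Among the other bins of the lowest 10, chr15:74300001-74400000 had no protein-coding gene and a KO ratio of -0.48. chr7:59800001-59900000 lies in the imprinted Snhg14 region with its Snord116 copies and had -0.49. Its small RNA genes are annotated in many copies, and how reads were placed among copies is not given in the sources used here. Its input was lower in KO than in WT in males (-0.16, edgeR adjusted p = 0.0257). That input call was lost with DESeq2 and without input male KO replicate 2 (-0.12), WT replicate 1 (-0.16) or WT replicate 2 (-0.17).

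The bin of second-lowest WT ratio stood apart from the rest. It was chr10:121700001-121800000 (Srgap1 and BC048403), a single-bin run with an input density of 1.46 times the chromosome median, close to the limit of 1.5. H2AX ranged widely there, at 124 and 136 CPM in KO females, 131 and 173 in KO males, 144 and 176 in WT females and 100 and 115 in WT males. gH2AX was 93.5 and 101 CPM in KO females and 88.3 and 89.8 in KO males. The KO ratio was -0.58 with an SE of 0.09 (edgeR adjusted p = 0.00131), an SE larger than at the bins above, and its WT ratio was -0.87 in females and -0.39 in males. Input differed as well, lower in KO females (-0.16, adjusted p = 4.07e-04) and higher in KO males (0.16, adjusted p = 8.60e-04). Both input calls were lost with DESeq2 and in the fit of all 24 libraries. They were also lost without input female KO replicate 1 or WT replicate 2 (each -0.14) and without input male KO replicate 2 (0.07) or WT replicate 1 (0.12).

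At the other edge, the KO ratio came closest to 0 in 5 bins. The bin in Tiam1 (chr16:89900001-90000000), an activator of the GTPase Rac, had gH2AX at 45.5 and 43.5 CPM in KO females and 49.3 and 48.6 in KO males. H2AX there was 48.4 and 50.2 CPM in KO females and 47.8 and 50.7 in KO males. The antibodies overlapped in males and not in females, and the averaged ratio was -0.07 ± 0.02 (SE; edgeR adjusted p = 0.00834). Its call was lost without gH2AX female KO replicate 2 (-0.05), H2AX female KO replicate 2 (-0.06) or H2AX male KO replicate 2 (-0.05). The bin of Srp68, Evpl and Ten1 (chr11:116200001-116300000) was at -0.09, and was not called without H2AX male KO replicate 1 (-0.04) or with DESeq2 (-0.08, adjusted p = 0.0818). Bins in Cpped1 (chr16:11800001-11900000), Adck1 (chr12:88400001-88500000) and over Notch2 and Adam30 (chr3:98100001-98200000) followed at -0.10, -0.10 and -0.11. In KO males the ratio was not low at Cpped1 (0.02) and Adck1 (0.01), against -0.21 in KO females at each. At Notch2 it was -0.11 in both sexes.

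In KO the ratio was lower in females than in males at 127 of the 1184 bins and higher at 1, where 5.15% and 4.54% of all bins tested were called. The median difference, female minus male, was -0.06, and 935 bins were below 0. This count moved with single libraries: in total 128 bins were called with all of them, 44 without gH2AX female KO replicate 2, 50 without gH2AX male KO replicate 1, 70 without H2AX female KO replicate 1 and 56 without H2AX female KO replicate 2. The spread of gH2AX over input across eligible bins also differed between the sexes of KO. Its SD was 0.18 and 0.19 in the female KO libraries and 0.24 and 0.25 in the male KO libraries. In WT the order of the sexes was the other way round, with 0.24 and 0.22 in females and 0.17 and 0.16 in males. The part of this spread in the sex difference was not tested. A female minus male difference below 0 was also found in 12406 of the 23679 eligible bins. The eligible bins next to the set leaned much as the set did. Of these 1001 bins, 94 were called lower in females (9.39%) and 3 higher, with a median of -0.05 and 749 below 0.

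The largest such difference was at chr1:127400001-127500000, over Mgat5 (an enzyme that branches N-glycans) and Tmem163. gH2AX was 42.8 and 42.5 CPM in KO females and 48.7 and 48.7 in KO males. H2AX was 52.2 and 50.5 CPM in KO females and 48.5 and 50.2 in KO males. In males both antibodies overlapped, in females they did not, and the difference was -0.25 ± 0.05 (SE; edgeR adjusted p = 3.37e-04). In WT the same ratio was -0.24 in females and -0.24 in males. The next 4 were over Gse1 (-0.25), Cog7 and Scnn1b (-0.25), Ptpn14 (-0.24) and Pax7 (-0.24). At these 4 the WT ratio was higher in females than in males, at -0.19 and -0.29 over Gse1, -0.20 and -0.25 over Cog7, -0.18 and -0.31 over Ptpn14 and -0.27 and -0.29 over Pax7. Of the 127 bins lower in KO females, 51 were lower and 76 higher in WT females than in WT males, a description with no test. The 1 bin with a higher ratio in females lay at Rxfp2 (0.15, adjusted p = 0.0399). The Rxfp2 call was lost with DESeq2, without gH2AX female KO replicate 2 (0.12) or gH2AX male KO replicate 1 (0.12), and without any 1 of the 4 KO H2AX libraries (0.14 to 0.16).

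Input DNA at the set was compared between KO and WT to see whether the amount of DNA differed there. In females 3 of the 1184 bins were called lower and 3 higher, where 0.121% and 0.0506% of all bins tested were called. In males 5 were lower and 2 higher (0.121% and 0.0895%). The medians over the set were 0.04 in females and -0.02 in males, where those of eligible bins were 0.00 and 0.00. The female count was 2 without input female KO replicate 1 and 3 without input female WT replicate 2. The male count was 3 without input male KO replicate 2 and 4 without either male WT replicate.

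The bin over Wwc2, Cldn22 and Cldn24 (chr8:47800001-47900000) differed most in input. It had 18.2 and 18.9 CPM in KO females against 37.9 and 37.0 in WT females, 37.3 and 38.1 in KO males and 35.7 and 36.9 in WT males. KO females alone were low, with a log2 difference of -1.02 (edgeR adjusted p = 1.81e-57). Both histone forms were low there too, with gH2AX at 21.8 and 22.9 CPM and H2AX at 26.7 and 27.2 in KO females. The KO ratio was nonetheless -0.26 in females and -0.18 in males, so the low gH2AX for the amount of H2AX was measured at either DNA level.

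At chr5:104000001-104100000 (Hsd17b11, Sparcl1, Nudt9) the input density was 1.49 times the chromosome median. Its H2AX was again high and variable, at 107 and 117 CPM in KO females and 114 and 149 in KO males. Its input differed by -0.17 in females and 0.13 in males (edgeR adjusted p = 2.66e-05 and 0.0101). The female call was lost in the fit of all 24 libraries and without input female KO replicate 1 (-0.14). The male call was lost with DESeq2, in the fit of all 24 libraries and without input male KO replicate 2 (0.06), WT replicate 1 (0.12) or WT replicate 2 (0.15). At chr14:43400001-43500000, over the provisional genes Gm21154 and Gm8138, input differed by 0.17 in females and -0.21 in males (edgeR adjusted p = 4.07e-04 and 6.04e-06). The female call there was lost without input female KO replicate 1 (0.14) or WT replicate 1 (0.16). In both bins the 2 sexes went opposite ways between KO and WT.

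By gene content the set was neither gene-poor nor gene-rich. Bins with 1 gene midpoint belonged to it most often (6.28% of 5828), followed by those with 2 (5.29%), none (4.59%), 3 to 4 (3.97%) and 5 or more (3.48%). Bins lying wholly inside protein-coding gene bodies belonged in 7.58% of cases and bins without any gene body in 3.96%. No protein-coding gene was annotated in 27.9% of the set, in 35.2% of eligible bins and in 63.2% of the highest 5%. These classes were drawn up with the values in view.

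Each of 58 protein-coding genes overlapped 3 or more bins of the set, a bound chosen after the values were seen. Together they covered 221 of the 1184 bins (18.7%), and their median length was 416 kb against 17.3 kb for all protein-coding genes. A long gene has more bins and hence more chances to reach that bound, and 2 other lists of long genes, fragile-site and neuronal adhesion genes, were seldom in the set (0 of 236 and 4 of 225 eligible bins). Cdh13 (T-cadherin) had 9 of its 13 bins in the set, with a mean KO ratio of -0.38 over those 9 and -0.30 over all 13. Asic2 (a proton-gated sodium channel) had 8 of 12 (-0.31 over the 8 and -0.26 over the 12), and Sdk1 (a synaptic adhesion protein) had 7 of 11 (-0.36 over the 7 and -0.28 over the 11).

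Some long genes lay in the set from end to end. Tmem132d had 8 of 8 bins (mean KO ratio -0.38), Csmd2 had 7 of 7 (-0.40) and Ephb1, an ephrin receptor kinase, had 5 of 5 (-0.34). Grik3, Dscaml1 (a neural adhesion protein), Ksr2 (a scaffold of the MAP kinase pathway) and Prdm16 had 4 of 4 each, at -0.40, -0.27, -0.33 and -0.26. At Grik3, whose promoter is printed above, H2AX over input averaged 0.63 and gH2AX 0.23. At Mad1l1, a spindle checkpoint gene with 3 of 4 bins, both forms were higher in those 3 (0.77 and 0.51), and the ratio was -0.27 there and -0.21 over all 4. At Cpne4, a calcium-dependent lipid-binding protein with 4 of 6 bins, both were lower in those 4 (0.23 and -0.07), and the ratio was -0.30 there and -0.29 over all 6. The choice of bins by their WT ratio limits how far such ratios can differ.

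Of the gene groups examined, keratins and keratin-associated proteins had the largest share in the set, 8 of 32 eligible bins (25%). Their 32 bins had a median KO ratio of -0.13 with 22 called lower and 4 higher, against 0.00 over eligible bins with 32.4% lower and 33.5% higher. The same shares of eligible bins apply to the counts of the gene groups below. The bin of Krt5, Krt71, Krt72 and Krt73 (chr15:101700001-101800000) was at -0.35 in KO, with H2AX at 0.51 and gH2AX at 0.16 over input (edgeR adjusted p of the ratio 6.60e-27). That of Krt1, Krt2, Krt76 and Krt77 (chr15:101800001-101900000) was at -0.32, and that of Krt14, Krt16, Krt17 and Krt42 (chr11:100200001-100300000) at -0.27. Keratin-associated proteins of the hair shaft gave 2 bins on chromosome 10 (Krtap10-4 and Krtap12-1, -0.37 and -0.31) and 2 on chromosome 7 (Krtap5-2 and Krtap5-3, -0.32 and -0.30). Genes of 1 bin share its value, and clustered copies are similar in sequence.

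The clustered protocadherins had 2 of 10 eligible bins in the set, both over the beta cluster at chr18:37300001-37500000 (KO ratio -0.28 each). All 10 bins had a median of -0.22 with 8 called lower and none higher. Imprinted genes had 3 of 38 bins, those of Phlda2 (-0.21), Meg3 (-0.16) and Zim1 (-0.26), and a median of -0.07 with 21 lower and 7 higher. Zinc finger genes had 16 of 350 (median -0.03, 151 lower and 89 higher). Zfp831 lay in the set over all 3 of its bins (mean -0.36) and Zfp996 of the chromosome 12 stretch was at -0.43.

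Receptor families were low in the KO ratio as a whole but seldom in the set. Olfactory receptors had 10 of 339 eligible bins (2.95%), although 241 of the 339 were called lower and 21 higher, with a median of -0.12. Olfr524 at chr7:140200001-140300000 had the lowest WT ratio of them and stood at -0.42 in KO. Vomeronasal receptors had 2 of 185 (median -0.13, 155 lower and 5 higher), and immunoglobulin and T cell receptor segments had 1 of 77 (median -0.15, 64 lower and 5 higher), the bin of the heavy chain joining segments at -0.39. H2AX over input was near 0 in these families, with medians of -0.05, -0.04 and 0.00, and gH2AX was below it at -0.18, -0.16 and -0.15.

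Several groups had no bin in the set. These were genes of break signalling (31 eligible bins), end joining (17), homologous recombination (27), p53 targets (28), immediate early genes (19), housekeeping genes (13), ribosomal proteins (74), long fragile-site genes (236), histones (9) and Hox clusters (9). The rule takes 5% of eligible bins, so holding none says little for the lists of 9 to 31 bins. The bins of a long gene are adjacent and not independent. Histone gene bins stood at the opposite end, with a median KO ratio of 0.28, 7 of 9 called higher and 5 of 9 in the highest 5% in WT. Immediate early genes had a median of 0.12 with 14 of 19 higher and 2 lower. Of all eligible bins 33.5% were called higher and 32.4% lower.

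Fibroblast matrix and identity genes had 1 of 30 bins in the set, at Col5a1 (chr2:27900001-28000000), a chain of fibrillar collagen V. Its KO ratio was -0.30, with H2AX at 0.68 and gH2AX at 0.37 over input. The 30 bins together had a median of 0.12, with 20 called higher and 4 lower, and 6 of them were in the highest 5%. The long neuronal adhesion genes had 4 of 225 bins, from Nrxn3 (1 of 17 bins, -0.41), Ntm (2 of 11) and Dscam (1 of 7, -0.34), and a median of 0.03 with 49 lower and 90 higher.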

How the data were processed

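Each library's 100 kb bin counts were taken as the authors deposited them, as raw read counts. Per the submitters' processing notes, the build was mm10 and the tools included Bowtie2 2.2.9, MACS2 2.2.7.1, deepTools 2.4.2 and Trimmomatic 0.36. How duplicates and reads with several alignments were treated is not given in the sources used here. A further 24 columns fit no sample of the labels and took no part. The members and gene lists were chosen with earlier results of these data known.

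Two-sided quasi-likelihood F tests were run in R 4.3.3 with edgeR 4.0.16 (robust, TMM factors on autosomal bins, library sizes as autosomal reads) on the 25703 bins of chromosomes 1 to 19 and X that passed filterByExpr, with Benjamini-Hochberg adjustment over all of them at 0.05. One fit took the 12 KO libraries with a mean per antibody and sex (median biological coefficient of variation 2.06%), and a second took the 8 input libraries (1.85%). An SE is the log2 value divided by the square root of F. Replicates differed by more than counting error (chi-square over its degrees of freedom, 2.57 to 3.56). The script was tested on simulated counts. CPM are counts per 1e6 autosomal reads.

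Bins were named by rule: the 10 of lowest WT ratio, the 8 longest runs, the 3 on either side of the threshold, the 5 of highest KO ratio, and up to 5 per direction or sex for the sex difference and for input. Up to 3 protein-coding genes of longest overlap are named, from RefSeq for GRCm38.p6, the assembly of mm10. A gene list's bins are those that its genes overlap, and a gene's own value is that of 1 bin. Other named genes were chosen after their values were seen. Alternatives were DESeq2 1.42.0, no TMM, no filter, a replicate block, a fit of all 24 libraries, each library left out, and other member rules.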

Additional observations from a re-analysis of the deposited data

Results flagged for a closer look

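The KO ratio of gH2AX to H2AX differed between the sexes at 127 bins of the set with a lower ratio in females and at 1 bin with a higher ratio in females, by the test of the difference itself (edgeR quasi-likelihood test, adjusted p under 0.05 over 25703 bins). Among the bins lower in females, the female minus male difference was -0.25 at chr1:127400001-127500000 (Mgat5, Tmem163), -0.25 at chr8:120300001-120400000 (Gse1), -0.25 at chr7:121900001-122000000 (Cog7, Scnn1b, Gga2), -0.24 at chr1:189800001-189900000 (Ptpn14, Smyd2) and -0.24 at chr4:139700001-139800000 (Pax7). At chr5:150000001-150100000 (Rxfp2) it was 0.15. In these 5 bins lower in females the 2 gH2AX libraries of KO males lay above the 2 of KO females, and at Rxfp2 they lay below. In WT the ratio of these 5 bins was alike in both sexes (Mgat5) or higher in females (the other 4), and the spread of gH2AX over input was wider in male than in female libraries in KO and narrower in WT. The part of that spread was not tested. Of the set 10.7% were called lower in females, against 9.39% of the eligible bins next to it and 5.15% of all bins tested.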

How the results depend on the processing

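The bins called lower in the KO ratio with the sexes averaged numbered 1183 or 1184 of the 1184 under every alternative fit that kept all libraries. Their direction was reversed in no alternative fit. Leaving out each library in turn gave 1179 to 1184 in females, 1107 to 1160 in males, 749 to 786 bins higher for gH2AX over input and 1183 for H2AX over input. The sex difference was called at 44 to 126 bins with 1 library left out, against 128 with all, at 94 with DESeq2 and at 156 without TMM. Input calls in females, 6 in all, were 3 with DESeq2 and 2 to 9 with 1 library left out. Input calls in males, 7 in all, were 1 with DESeq2, 4 in the fit of all 24 libraries and 3 to 7 with 1 library left out. The cause of these changes was not tested. Taking the lowest 2.5% in place of 5% kept 592 bins by construction. Under some other member rules not every bin was called lower in the KO ratio. The counts were 2360 of 2368 for the lowest 10%, 1200 of 1202 without input filter and 1182 of 1184 for male WT alone. With the trend removed it was 1183 of 1184. Leaving out each WT library kept 1080 to 1128 of the 1184, female WT alone 917, male WT alone 935 and removal of the trend of the ratio on mean enrichment 946. Of 500 alternatives at single named bins, 47 lost the call: those at Rxfp2 (7) for the sex difference, at Tiam1 (3) and Srp68 (2) for the KO ratio, and 35 for input.

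Same-numbered libraries did not deviate together (correlations of replicate deviations between -0.04 and 0.06). This cannot tell whether they came from the same culture, since noise of each library can hide a shared source. With the replicate block, 1184 bins were called with the sexes averaged, 1184 in females, 1159 in males, 146 for the sex difference, 780 for gH2AX over input, 1183 for H2AX over input, and 6 and 7 for input in females and males. Depth allowed the bin SE of about 0.02 seen at most named bins, and a bin of 100 kb resolves neither a promoter nor an exon.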
